A study of Mus musculus with 11 samples.

Results

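Germinal center B cells that had lost the acetyltransferase gene Crebbp were compared with wild-type germinal center B cells from mouse spleens. The comparison takes the 3 libraries labelled CBP-KO and the 5 labelled WT, which are 8 of the 11 libraries of the series, and 16515 of 48593 genes, those with a mean normalized read count of at least 10 over the 11 libraries. The Crebbp-KO mice were Crebbpfl/fl;Ep300+/+;Cg1cre/+ and the WT mice Crebbp+/+;Ep300+/+;Cg1cre/+. The other 3 libraries came from Crebbp+/+;Ep300fl/fl;Cg1cre/+ mice (labelled p300-KO, here Ep300-KO), and they entered the same model and served to ask where Crebbp loss differed from loss of its paralog. Every mouse, controls included, carried the Cg1cre allele, a Cre recombinase expressed from the IgG1 constant region locus, which acts in B cells as they join a germinal center. By design, cells in which this locus is silent keep Crebbp. All mice had been injected intraperitoneally with sheep red blood cells 12 days earlier, and B220+/PNA+/CD95+ cells were sorted. The labels give a cross (Crebbp+/- parents) for the WT mice alone, and give no age, sex, litter or batch, so a difference of cross or litter cannot be told apart from loss of Crebbp. They do not say whether a library was 1 mouse, so p-values measure the spread between these libraries.

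CREBBP (also CBP) and EP300 (p300) are related lysine acetyltransferases that transcription factors bring to enhancers and promoters, where they acetylate histones and other proteins. Germinal center B cells divide and mutate their antibody genes in a dark zone, then move to a light zone, where they present antigen on MHC class II to follicular helper T cells and compete for survival signals. BCL6 and its corepressors hold enhancers of antigen presentation, CD40 and antigen receptor response genes in a deacetylated state, and CREBBP is known to oppose them. CREBBP is among the most often mutated genes of follicular lymphoma and diffuse large B cell lymphoma.

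Depth was 53550726 to 132861266 reads in WT and 63281823 to 78385537 in Crebbp-KO. Listed values are normalized read counts in the order WT_4, WT_7, WT_41, WT_46 and WT_288, then CBP-KO_1, CBP-KO_53 and CBP-KO_55. Means carry the SD over n = 5 WT and n = 3 Crebbp-KO libraries, log2 values are differences of log2(value + 1), Crebbp-KO minus WT, and adjusted p values come from limma over all tested genes. On the first principal component (21.4% of variance) WT_46 stood at -57.7, and the other WT libraries stood between -28.3 and -11.3. There CBP-KO_1, CBP-KO_53 and CBP-KO_55 stood at 13.2, 24.4 and 20.9, and the Ep300-KO libraries between 13.4 and 36.0. On the second (18.4%) CBP-KO_53 and CBP-KO_55 stood at -36.3 and -40.2, and CBP-KO_1 at -0.45, within the WT range of -12.9 to 18.1. Transcripts of the Y chromosome were high in WT_41, WT_288, CBP-KO_1 and p300-KO_287, and p300-KO_18 held both these and the noncoding RNA of the inactive X chromosome. Of 20 tested genes that define B cells and germinal center B cells, 4 were called lower (2 without WT_41, 1 without CBP-KO_55) and 0 higher, with a median log2 difference of -0.11. Pax5 stood at 91333 ± 11334 in WT and 93611 ± 8586 in Crebbp-KO, and Mki67, a proliferation marker, at 260591 ± 7253 in WT and 257592 ± 11392 in Crebbp-KO. Both were present in every library, and their groups overlapped. Among the 20 markers, however, 16 had a log2 difference below 0, and those that fell were Rgs13, Cd79a, the chemokine receptor gene Ccr6 (log2 -0.98, adjusted p = 0.0271) and Fas, which encodes the sort marker CD95. Among these calls, those that ended without the library in brackets were of Cd79a (WT_41, CBP-KO_53 or CBP-KO_55, highest adjusted p 0.119), Fas (CBP-KO_53 or CBP-KO_55, highest adjusted p 0.0718) and Ccr6 (WT_41, WT_4, CBP-KO_55 or CBP-KO_1, highest adjusted p 0.114).

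The targeted gene was examined first. Crebbp (GRCm38, chromosome 16, 4081328 to 4213997) stood at 8163, 9584, 9443, 9156 and 7984 in WT and 8595, 8606 and 7541 in Crebbp-KO. The groups overlapped (log2 -0.10; exact two-sided permutation p = 0.268, where 5 against 3 libraries allow no p below 0.0179). Reads were counted over the whole gene, so a deletion of part of it need not lower this value, and the level does not check the labels. In Ep300-KO Crebbp stood at 10073, 10952 and 10218, above each WT and Crebbp-KO library, and the knockouts differed (log2 -0.34, adjusted p = 0.0224). Ep300 stood at 19310.3, 22238, 21460.3, 22498 and 20833 in WT and 22789, 25741 and 23271 in Crebbp-KO, with each Crebbp-KO library above each WT library (log2 0.17, exact two-sided permutation p = 0.0357; limma adjusted p = 0.111). In Ep300-KO, where it is the targeted gene, it stood at 14829, 14796 and 13773 (log2 of Crebbp-KO against Ep300-KO 0.73, adjusted p = 7.08e-05). Of 28 acetyltransferases and their partners, 1 was called higher and 0 lower (3.57% called higher, against 3.48% of all tested genes). Kat2b, another histone acetyltransferase, had log2 0.23 (adjusted p = 0.0541). The difference from Ep300-KO did not pass without the library in brackets for Crebbp (CBP-KO_55 or p300-KO_287, highest adjusted p 0.0969).

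Over all tested genes, 574 rose (3.48%) and 806 fell (4.88%) in Crebbp-KO. Most changes were small. The median fold of the genes that rose was 1.42 and of those that fell 1.46, and 318 of the former and 436 of the latter changed by less than 1.5-fold. At 2-fold or more there were 140 (0.848%) and 189 (1.14%), and at 4-fold or more 19 and 53. The WT and Crebbp-KO libraries did not overlap in 559 of the genes that rose and 764 of those that fell. Over all tested genes, 8.43% had every Crebbp-KO library above every WT library and 8.47% below. Among genes with a mean of at least 5000, 100 rose and 234 fell, while between 50 and 200 the counts were 80 and 77. The median log2 difference of all tested genes was 0.01, with the middle 50% between -0.15 and 0.13. Without CBP-KO_53 the counts were 222 higher and 433 lower, and without CBP-KO_55 they were 270 and 372.

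**Figure D1:**
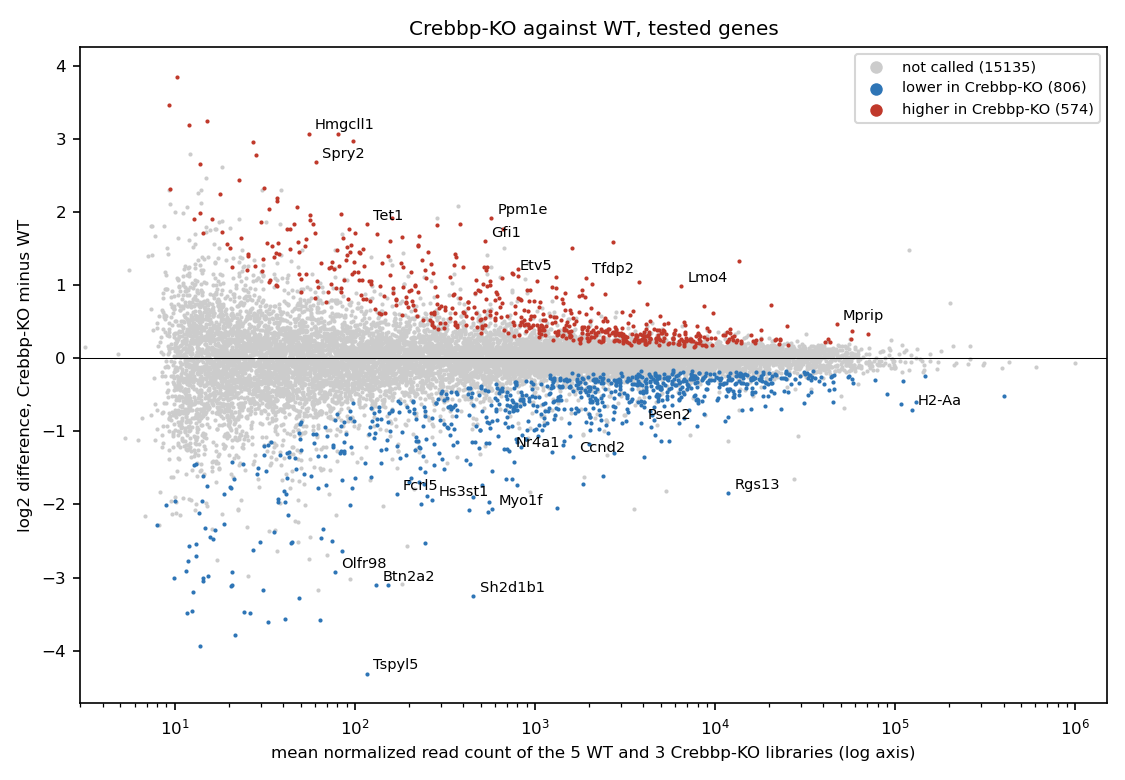
Log2 difference between Crebbp-KO and WT (vertical axis) against the mean normalized read count over the 8 libraries (horizontal log axis), 1 point per tested gene. Red points (574) were called higher and blue points (806) lower. Large differences lie at low and middle levels, and the strongly expressed class II gene H2-Aa stands out at the right by its level rather than its size of change.

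Called genes were spread over the genome. Within 2 Mb of Crebbp 4 of 42 tested genes were called (9.52%), against 8.98% on the rest of chromosome 16 and 8.38% on other chromosomes, and all 4 had a log2 difference within 0.35 of 0. On the X chromosome 37 of 503 genes rose (7.36%) and 14 fell. With Y-linked signal (high or not) as a covariate and p300-KO_18 left out, these counts were 38 and 15, and without CBP-KO_53 20 and 11. Of 659 long intergenic RNA genes 4 rose (0.607%) and 26 fell (3.95%), and of 12325 protein-coding genes 544 rose (4.41%) and 730 fell (5.92%). The shares over all tested genes were 3.48% and 4.88%.

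MHC class II molecules present antigen to helper T cells. Of 9 genes for class II chains and peptide editors, 8 fell and 0 rose (88.9% called, against 8.36% of all genes), with a median log2 difference of -0.61. H2-Aa, the alpha chain of I-A, stood at 152672, 142809, 153770.0, 126744 and 143867 in WT and 100092, 91189.8 and 75307 in Crebbp-KO, and its lowest WT library was above its highest Crebbp-KO library (log2 -0.70, adjusted p = 0.000693). H2-Ab1, the beta chain that pairs with it, stood at 155002, 146698, 158283, 136736 and 146509 in WT and 106290.0, 102242 and 86959 in Crebbp-KO, again without overlap (log2 -0.60 ± 0.07 SE, adjusted p = 0.000434). H2-Eb1, the beta chain of I-E, fell from 124554 ± 8670.0 to 80555 ± 9225. The peptide editor H2-DM exchanges the invariant chain remnant for antigen peptides, and H2-O restrains it. H2-DMa (log2 -0.66), H2-DMb2 (-0.61) and H2-DMb1 (-0.54) fell, and so did H2-Oa, which stood at 7621, 7276, 8290.1, 8023 and 6955 in WT and 5256, 4035 and 3255 in Crebbp-KO (log2 -0.89 ± 0.13 SE, adjusted p = 0.00123). H2-Ob, the partner of H2-Oa, stood at 42252 ± 3331 in WT and 35169.7 ± 4554 in Crebbp-KO and did not pass (log2 -0.27, adjusted p = 0.0935). H2-Eb2, a further beta chain, fell from 11713 ± 881 to 7967 ± 1539 (log2 -0.57, adjusted p = 0.0122). In Ep300-KO, H2-Aa stood at 124964, 140903 and 126527 and H2-Ab1 at 142160.0, 142965 and 137848. Over all tested genes, 1556 (9.42%) differed between the knockouts in the same model, 791 (4.79%) higher and 765 (4.63%) lower in Crebbp-KO than in Ep300-KO. This direct difference passed for H2-Aa (log2 -0.57, adjusted p = 0.00473), H2-Ab1 (log2 -0.52, adjusted p = 0.00158) and H2-Oa (log2 -0.64, adjusted p = 0.0145), and missed for H2-Eb2 (log2 -0.19, adjusted p = 0.42) and H2-DMb1 (adjusted p = 0.145). H2 genes resemble each other and can share reads. In sorted bulk cells, fewer cells of a type and less RNA per cell cannot be told apart. Calls that ended without the library in brackets were those of H2-DMb1 (CBP-KO_53, CBP-KO_55 or CBP-KO_1, highest adjusted p 0.0684) and H2-Eb2 (CBP-KO_53 or CBP-KO_55, highest adjusted p 0.073). Without the library in brackets, the difference between the knockouts did not pass for H2-Oa (CBP-KO_53, CBP-KO_55 or p300-KO_287, highest adjusted p 0.0611).

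Class II promoters carry a conserved X box, bound by the RFX complex and CREB, and a Y box, bound by NF-Y. The class II transactivator CIITA, which has no DNA binding of its own, docks on these factors and brings CREBBP and other acetyltransferases. The promoters are shown because the class II genes, of which 8 fell, are known for this layout, which these letters find in some of them and not in others. The letters were read from RefSeq promoters (GRCm38.p6), which held 8 of the 9 genes, within 250 bases before the start. Capitals mark AACNNATG (X box letters) followed after 10 to 30 bases by ATTGG (Y box letters on this strand), a pattern written after these promoters had been read. H2-Aa, H2-DMa and H2-Oa, which fell, lack that pattern, and the capitals of H2-Aa mark TGACGTCA and ATTGG.
H2-Eb1, chr17:34305766-34305824, plus strand: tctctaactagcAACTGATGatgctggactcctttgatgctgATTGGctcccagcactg
H2-DMb2, chr17:34145116-34145175, plus strand: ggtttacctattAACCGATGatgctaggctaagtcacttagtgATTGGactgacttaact
H2-DMb1, chr17:34153087-34153146, plus strand: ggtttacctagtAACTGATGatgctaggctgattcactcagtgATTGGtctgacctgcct
H2-Ob, chr17:34238808-34238864, plus strand: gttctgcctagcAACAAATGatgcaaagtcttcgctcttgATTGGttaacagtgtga
H2-Aa, chr17:34287855-34287921, minus strand: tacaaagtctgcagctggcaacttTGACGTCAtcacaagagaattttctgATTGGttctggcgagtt
Of 27025 promoters in the table, 51 held the joined pattern on either strand (0.189%). They included 5 of the 8 class II promoters, those of H2-Eb1, H2-Eb2, H2-DMb1, H2-DMb2 and H2-Ob, with 20 to 23 bases between the X and Y letters. Because the pattern was written with these promoters in view, their count beside the share of all promoters is not a test. AACNNATG alone was in 7.81% of promoters, ATTGG in 34.5% and TGACGTCA in 1.62%. H2-Ob, which did not pass the test, holds the same pattern as H2-DMb1, which fell. Letters in a promoter are a description and do not show what bound there.

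The regulators of class II changed less than the chains. Of 15 regulators and processing enzymes 2 rose (1 without CBP-KO_53 or CBP-KO_55) and 4 fell (2 without CBP-KO_53, 1 without CBP-KO_55), with a median of -0.06 and 40.0% called, against 8.36% of all genes. Ciita stood at 44943, 43624, 45307, 41756 and 41770.4 in WT and 36588, 36121 and 29986 in Crebbp-KO, and the groups did not overlap (log2 -0.35 ± 0.08 SE, adjusted p = 0.0135). Its direct difference from Ep300-KO had adjusted p = 0.0514. Rfx5, an X box factor, had log2 -0.21 (adjusted p = 0.112), and Rfxap, its partner, rose (log2 0.32). Among lysosomal proteases that prepare antigen, Lgmn fell from 17864 ± 1096 to 12934 ± 1004 (log2 -0.47, adjusted p = 0.00125) and Ctsl rose from 57.2 ± 19.5 to 147 ± 12.5 (log2 1.40, adjusted p = 0.00527). The library in brackets, when left out, ended the calls of Ciita (CBP-KO_55, adjusted p = 0.0718) and Rfxap (CBP-KO_53 or CBP-KO_55, highest adjusted p 0.089).

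MHC class I molecules display peptides from inside the cell. Of 25 genes for class I presentation 6 fell (3 without WT_41 or CBP-KO_1, 12 without WT_46, 10 without WT_7, 13 without WT_288, 2 without CBP-KO_53 or CBP-KO_55) and 0 rose, 24 had a log2 difference below 0, and the median was -0.42. The median was -0.30 without WT_46. H2-T23, a nonclassical class I gene that presents leader peptides to NK cell receptors, stood at 13779, 13338, 15807, 15036 and 12512 in WT and 8522, 8672 and 6965 in Crebbp-KO, so each Crebbp-KO library was below each WT library (log2 -0.81, adjusted p = 0.000359). Its direct difference from Ep300-KO also passed (log2 -0.91, adjusted p = 0.000158). H2-M3, which presents formylated peptides, fell from 3855 ± 543 to 2112 ± 189 (log2 -0.86, adjusted p = 0.00044). The classical genes H2-K1 (log2 -0.68, adjusted p = 0.0578) and H2-D1 (log2 -0.51, adjusted p = 0.0625) did not pass. Nlrc5, the class I counterpart of CIITA, stood at 7880.0, 5462, 8314, 19508 and 4826 in WT and 2854, 4371 and 4659.7 in Crebbp-KO, with WT_46 above the other 7 libraries and adjusted p = 0.0828. The peptide loading factor Tapbp fell (log2 -0.39), and the beta chain gene B2m stood at 38026 ± 9755 in WT and 27899 ± 2437 in Crebbp-KO (log2 -0.42, adjusted p = 0.126). Leaving out the library in brackets ended the calls of Tapbp (CBP-KO_53 or CBP-KO_55, highest adjusted p 0.123).

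B cells meet T cells through surface molecules that carry help in both directions. Of 23 genes of T cell contact and costimulation 8 fell (5 without CBP-KO_55) and 1 rose, with a median of -0.26 and 39.1% called, against 8.36% of all genes. Sh2d1b1, which encodes the SLAM adaptor EAT2, stood at 549, 529, 566, 940.2 and 820.2 in WT and 99, 29.5 and 110.3 in Crebbp-KO, with no overlap. Btn2a2, a butyrophilin that inhibits T cells, stood at 201, 172, 206, 177 and 224 in WT and 36.2, 21.6 and 13.1 in Crebbp-KO, and its direct difference from Ep300-KO passed (log2 -1.98, adjusted p = 0.00981), whereas that of Sh2d1b1 did not (log2 -1.04, adjusted p = 0.136). Cd40, the receptor for T cell help, fell from 4464 ± 662 to 2867 ± 446 (log2 -0.64, adjusted p = 0.008). Slamf1 (log2 -0.46) and Tnfrsf13c, the BAFF receptor (-0.51), also fell. The activation markers Cd83 (log2 -0.15, adjusted p = 0.734) and Cd86 (log2 -0.26, adjusted p = 0.208) did not pass, and the groups overlapped in both. Calls of Cd40 (CBP-KO_55, adjusted p = 0.0529) did not pass without the library in brackets.

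Cytokine receptors followed the same direction in 7 of 27 tested genes (4 without CBP-KO_53), with 0 higher, a median of -0.21 and 25.9% called, against 8.36% of all genes. Il2rg, the chain shared by the receptors for IL-4 and IL-21, stood at 8915, 8084, 9254, 9289 and 7801 in WT and 6215, 6335 and 5611 in Crebbp-KO and fell (log2 -0.52 ± 0.07 SE, adjusted p = 0.00084). Its kinase partner Jak3 fell from 9861 ± 936 to 7363 ± 236, with WT_46 at 11528 above the others. Il6ra (log2 -0.71) and Ifngr1 (-0.42) fell. The receptor chains Il4ra (log2 -0.10, adjusted p = 0.691) and Il21r (log2 -0.20, adjusted p = 0.0792) did not pass. Against Ep300-KO, the difference passed for Il2rg (log2 -0.59, adjusted p = 0.000661) and Il6ra (log2 -0.61, adjusted p = 0.0212) and missed for Ifngr1 (log2 -0.12, adjusted p = 0.391). The difference from Ep300-KO did not pass without the library in brackets for Il6ra (CBP-KO_1, CBP-KO_53, p300-KO_18 or p300-KO_287, highest adjusted p 0.0787).

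Antigen receptor signalling genes fell at several steps, while its core kinases did not pass. Of 36 activating genes 8 fell (5 without CBP-KO_53 or CBP-KO_55) and 0 rose, with a median of -0.11 and 22.2% called, against 8.36% of all genes. Sh3bp2, an adaptor of SYK and PLC gamma signalling, stood at 2283, 2511, 2861, 2099.6 and 2232 in WT and 1479.5, 1457 and 1188 in Crebbp-KO (log2 -0.80 ± 0.11 SE, adjusted p = 0.00106). Nfatc2, a calcium-dependent transcription factor, fell from 4451 ± 258 to 2995 ± 464, Fyn, a SRC family kinase, from 7170.2 ± 599.6 to 4858 ± 439, and Vav2, an exchange factor for RAC, had log2 -0.31. Syk (log2 -0.11, adjusted p = 0.286), Btk (log2 -0.01, adjusted p = 0.975) and Plcg2 (log2 -0.11, adjusted p = 0.273) did not pass. Of the receptor's own signalling chains Cd79a fell (log2 -0.33), although the groups overlapped, and Cd79b had log2 -0.01. Among these calls, those that ended without the library in brackets were of Cd79a (WT_41, CBP-KO_53 or CBP-KO_55, highest adjusted p 0.119).

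Of 27 inhibitory genes 7 fell (4 without WT_41 or CBP-KO_55) and 2 rose (0 without CBP-KO_53, 1 without CBP-KO_55 or CBP-KO_1), with a median of -0.17 and 33.3% called, against 8.36% of all genes. Cd22, a sialic acid binding receptor that dampens the antigen receptor, stood at 93174, 95831, 118433, 106788 and 90491 in WT and 75723, 71015 and 67914 in Crebbp-KO (log2 -0.49 ± 0.08 SE, adjusted p = 0.00349), and its difference from Ep300-KO passed (log2 -0.69, adjusted p = 0.000732). Fcrl5, an Fc receptor-like inhibitor, fell from 236 ± 81.9 to 63.1 ± 19.6 (log2 -1.86, adjusted p = 0.00223). The phosphatases Ptpn7 (log2 -0.33) and Inpp5d, also called SHIP1 (-0.27), fell. Ptprj, a receptor phosphatase, rose from 6966 ± 449 to 9453 ± 749, and so did the IgG receptor Fcgr2b (log2 0.30). Ptpn6, also called SHP-1, did not pass (log2 -0.19, adjusted p = 0.0949). Calls that ended without the library in brackets were those of Ptprj (CBP-KO_53, adjusted p = 0.062) and Fcgr2b (CBP-KO_53, CBP-KO_55 or CBP-KO_1, highest adjusted p 0.123).

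Immediate early genes, induced within minutes by antigen receptor, CD40 and cAMP signals, were lower in 6 of 28 cases (3 without CBP-KO_53 or CBP-KO_55) with 0 higher and a median of -0.22. The share called was 21.4%, against 8.36% of all genes. Nr4a1, an orphan nuclear receptor that reports antigen receptor signalling, stood at 847, 1150.1, 1161, 611 and 856 in WT and 409, 372 and 344 in Crebbp-KO, so its highest Crebbp-KO library was below its lowest WT library (log2 -1.27 ± 0.18 SE, adjusted p = 0.00132). Junb, an AP-1 subunit, stood at 6496, 5900.1, 5838, 6158 and 5612 in WT and 4241, 3547 and 3659.6 in Crebbp-KO (log2 -0.66 ± 0.07 SE, adjusted p = 0.000405). Myc, which positively selected light zone cells induce, fell from 4709 ± 773 to 2958 ± 418 (log2 -0.66, adjusted p = 0.00586). The direct difference from Ep300-KO passed for Nr4a1 (log2 -0.82, adjusted p = 0.0251), Junb (log2 -0.49, adjusted p = 0.00309) and Myc (log2 -0.88, adjusted p = 0.00207). Nr4a3 (log2 -1.32) and Egr2 (-0.89) also fell. Fos, a gene that sample handling induces, stood at 124, 273, 135, 194 and 159 in WT and 149.6, 78.7 and 499 in Crebbp-KO with no common direction (log2 0.09, adjusted p = 0.95). Of 14 tested genes of stress and RNA quality, Fos among them, 0 rose and Atf3 alone fell (log2 -1.18, adjusted p = 0.038), so that 7.14% were called. The heat shock genes Hspa1a and Hspa1b stood at 17.6, 26.2, 29.98, 18.4 and 21.1 in WT and 15.7, 25.6 and 111 in Crebbp-KO and at 83.5, 93.1, 63.7, 129 and 60.3 in WT and 41, 108 and 278 in Crebbp-KO. CBP-KO_55 was the highest of these 8 libraries in Fos, Hspa1a and Hspa1b. Without it the class II list had 6 of 9 genes lower with a median of -0.53. The library in brackets, when left out, ended the calls of Nr4a3 (CBP-KO_53 or CBP-KO_55, highest adjusted p 0.0664), Egr2 (CBP-KO_53 or CBP-KO_55, highest adjusted p 0.0842) and Atf3 (WT_41, WT_4, WT_7, CBP-KO_53 or CBP-KO_55, highest adjusted p 0.188). Without the library in brackets, the difference between the knockouts did not pass for Nr4a1 (CBP-KO_53, CBP-KO_55, p300-KO_18 or p300-KO_287, highest adjusted p 0.0926).

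Among 25 genes that respond to cAMP and CREB, 7 fell and 2 rose (1 without CBP-KO_55), with a median of -0.07 and 36.0% called, against 8.36% of all genes. CREB binds the letters TGACG and recruits CREBBP, the interaction that gave CREBBP its name. Per1, a clock gene and CREB target, stood at 4633, 4766, 4659.9, 4475 and 4616 in WT and 3340.3, 2937 and 2912 in Crebbp-KO (log2 -0.60 ± 0.07 SE, adjusted p = 0.000405), and Gem, a small GTPase, fell from 1275 ± 52.4 to 829.5 ± 59.9. The phosphodiesterase Pde4a fell (log2 -0.54), the catalytic subunit Prkaca rose (0.35), and Creb1 itself did not pass (log2 0.17, adjusted p = 0.167). For Gem the difference from Ep300-KO was small (log2 -0.08, adjusted p = 0.633), whereas for Per1 it passed (log2 -0.61, adjusted p = 0.000465). Promoters of 3 members that fell and hold these letters are shown with TGACG (or CGTCA on the opposite strand) in capitals. Promoters of the other members were not searched, so these examples do not speak for the list.
Nr4a1, chr15:101266601-101266822, plus strand: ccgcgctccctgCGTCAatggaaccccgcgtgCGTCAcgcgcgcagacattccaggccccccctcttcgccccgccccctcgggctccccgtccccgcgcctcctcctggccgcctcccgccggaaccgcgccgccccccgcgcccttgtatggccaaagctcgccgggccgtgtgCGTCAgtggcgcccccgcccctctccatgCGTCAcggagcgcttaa
Junb, chr8:84978838-84978866, minus strand: gcttcctgacagTGACGcgagccgcctcc
Per1, chr11:69100008-69100036, plus strand: gagctcagcggcTGACGtcggtttccctg
Nr4a1 had 4 such sites and Junb 1 within 250 bases before the start, and 17.9% of all promoters held at least 1. Another Per1 promoter, not shown, also held 1 site.

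NF-kB factors relay CD40 and antigen receptor signals. Of 29 NF-kB subunits and response genes 13 fell (8 without WT_41 or WT_4, 6 without CBP-KO_53, 5 without CBP-KO_55) and 1 rose, 28 had a log2 difference below 0, and the median was -0.38. The share called was 48.3%, against 8.36% of all genes. Nfkb2, the p100 subunit of the noncanonical pathway, stood at 10343, 8881, 9809, 13786 and 8415 in WT and 7064, 5450.4 and 5511 in Crebbp-KO, and Relb, its partner, at 3430.5, 2983, 3348, 3325 and 2955 in WT and 2505, 1828 and 1764 in Crebbp-KO, both without overlap (log2 -0.76, adjusted p = 0.00621 and log2 -0.67, adjusted p = 0.00556). Traf1, an adaptor induced by CD40, fell from 8963 ± 593 to 6051 ± 734 (log2 -0.57, adjusted p = 0.000706), and Map3k14, the noncanonical kinase NIK, fell from 4803 ± 338 to 3698 ± 221. Among feedback inhibitors Tnip1 (log2 -0.34) and Nfkbia (-0.58) fell, and so did Bcl3 (-0.83), another member of the list. The canonical subunits Rel (log2 -0.04, adjusted p = 0.909), Rela (log2 -0.08, adjusted p = 0.383) and Nfkb1 (log2 -0.06, adjusted p = 0.775) did not pass, and their groups overlapped. Against Ep300-KO the difference passed for Traf1 (log2 -0.42, adjusted p = 0.00769), Nfkb2 (log2 -0.56, adjusted p = 0.0453) and Relb (log2 -0.51, adjusted p = 0.0384). Leaving out the library in brackets ended the calls of Bcl3 (CBP-KO_55, adjusted p = 0.0575) and Nfkbia (WT_41, WT_4, CBP-KO_53 or CBP-KO_55, highest adjusted p 0.146). The difference from Ep300-KO did not pass without the library in brackets for Nfkb2 (CBP-KO_53, CBP-KO_55, p300-KO_18, p300-KO_287, p300-KO_289, WT_4, WT_41 or WT_7, highest adjusted p 0.151) and Relb (CBP-KO_53, CBP-KO_55, p300-KO_18, p300-KO_287, WT_41 or WT_7, highest adjusted p 0.148).

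Among interferon regulatory factors and interferon response genes, 5 of 39 fell (2 without WT_41 or WT_4, 3 without CBP-KO_53, CBP-KO_55 or CBP-KO_1) and 1 rose, with a median of -0.26. The share called was 15.4%, against 8.36% of all genes. Irf4, which is induced by CD40 and antigen receptor signals and drives exit toward plasma cells, stood at 4279, 4327, 3737, 3314 and 3669 in WT and 2687, 2201 and 2108 in Crebbp-KO and did not overlap (log2 -0.73, adjusted p = 0.0029). In Ep300-KO it stood at 4857, 4062 and 3484, and the direct difference passed (log2 -0.82, adjusted p = 0.00255). Irf8, a factor of germinal center B cells, fell from 49104 ± 3985 to 39155 ± 992 (log2 -0.32, adjusted p = 0.00748), whereas Irf7 did not pass (log2 -0.15, adjusted p = 0.565). The median of this list by library was -0.46 in WT_288 and -0.01 in CBP-KO_53, so single libraries of both groups crossed.

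Many genes of the light zone signature are members of the lists above. Of its 32 genes 17 fell (9 without CBP-KO_55) and 2 rose (1 without CBP-KO_53 or CBP-KO_55), with a median of -0.56 and 59.4% called, against 8.36% of all genes. Cd52, a small surface glycoprotein, stood at 28726, 26264, 27512, 26491 and 25958 in WT and 19679, 15731 and 14834 in Crebbp-KO (log2 -0.70 ± 0.08 SE, adjusted p = 0.000429), and its direct difference from Ep300-KO passed (log2 -0.85, adjusted p = 0.000149). Cd44, a hyaluronan receptor, was 1 of the 2 that rose, from 8017 ± 223 to 9777 ± 226 (log2 0.29, adjusted p = 0.00448). Of 22 dark zone genes 4 rose (1 without WT_7, CBP-KO_53 or CBP-KO_55, 0 without CBP-KO_1) and 1 fell, with a median of 0.13 and 22.7% called. Foxo1, the factor that organizes the dark zone, did not pass (log2 0.15, adjusted p = 0.32), nor did Cxcr4, its chemokine receptor (log2 0.09, adjusted p = 0.36).

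**Figure D2:**
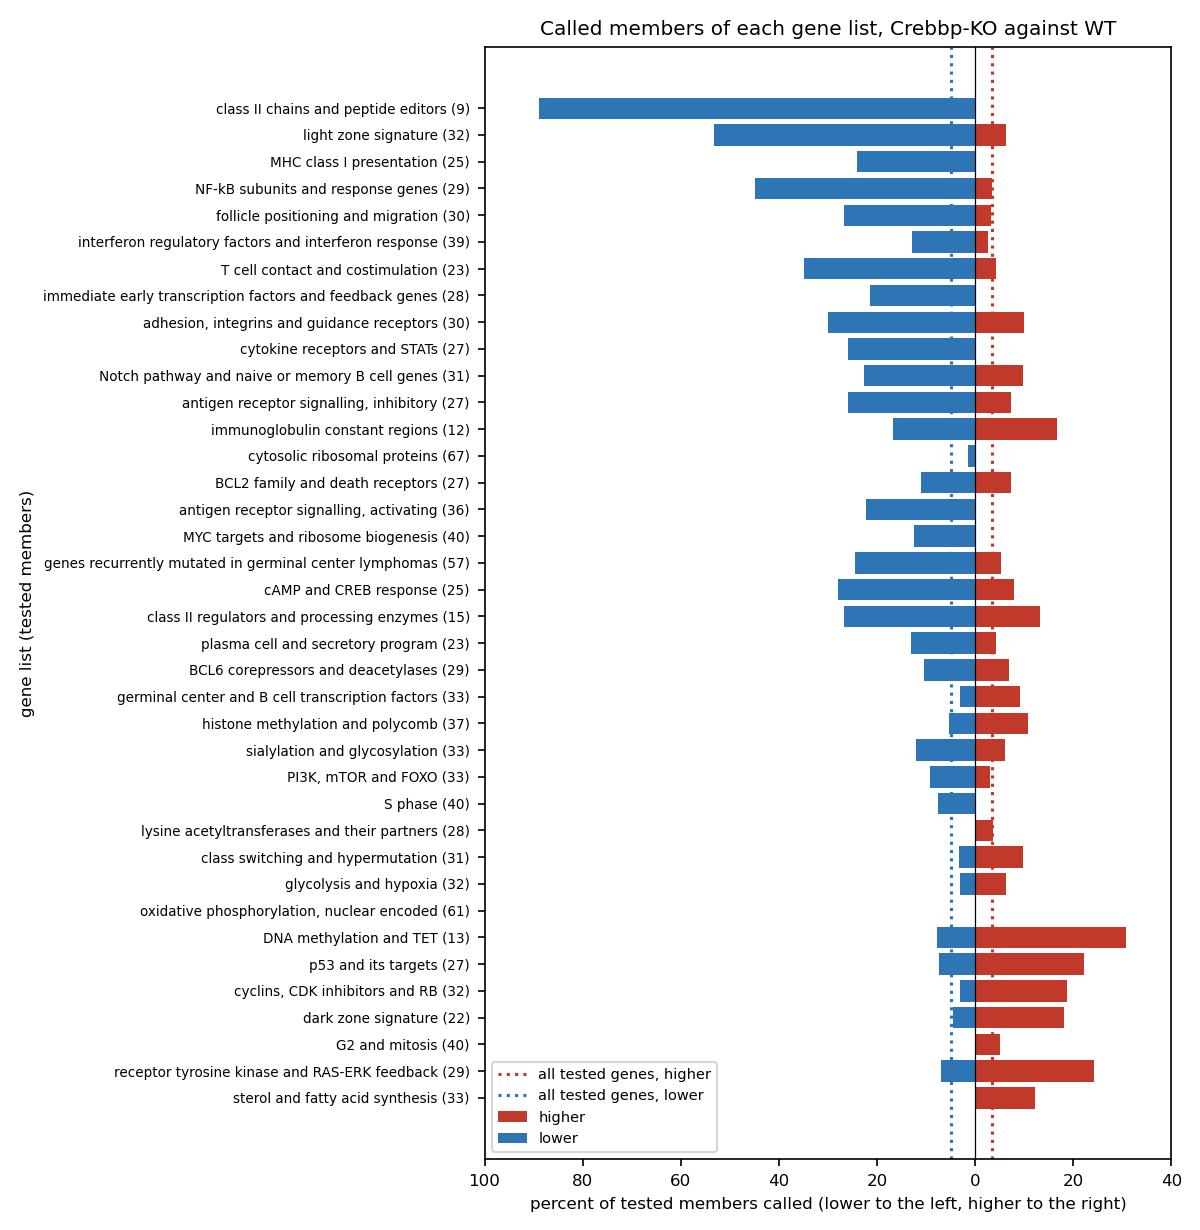
Percent of tested members called lower (blue, to the left) and higher (red, to the right) in Crebbp-KO for each gene list, ordered by median log2 difference, with the number of tested members in brackets. Dotted lines mark the shares over all tested genes, 4.88% lower and 3.48% higher. Class II chains and editors lead the lower side, and DNA methylation genes and RAS-ERK feedback genes the higher side.

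Of 33 transcription factors of germinal center identity 3 rose (1 without CBP-KO_53 or CBP-KO_1) and 1 fell, with a median of -0.01 and 12.1% called, against 8.36% of all genes. Bcl6, the repressor on which germinal centers depend, stood at 35900.1, 37399.7, 35859, 29529 and 37523 in WT and 41436, 29562 and 29307 in Crebbp-KO with overlap (log2 -0.09, adjusted p = 0.706). Mef2b, an activator of Bcl6, and Ebf1 did not pass (log2 -0.29, adjusted p = 0.176 and log2 -0.08, adjusted p = 0.681). Gfi1, a zinc finger repressor, stood at 323, 319.9, 262, 268 and 329 in WT and 847, 954 and 925 in Crebbp-KO, a rise in every Crebbp-KO library (log2 1.60 ± 0.14 SE, adjusted p = 0.000186). Its Ep300-KO values were 277, 219 and 333, within or near the WT range (log2 1.73, adjusted p = 5.84e-05). An uncharacterized gene on the opposite strand overlaps a Gfi1 exon, with 22.9 in WT and 79.0 in Crebbp-KO, and the library kit kept no strand. Bach2, a repressor of plasma cell fate, rose from 51912 ± 2525 to 67545 ± 7566 (log2 0.37, adjusted p = 0.0165). Lmo4, a LIM domain adaptor protein, stood at 4358, 5015, 5381, 4181 and 4880.3 in WT and 9585, 9118 and 9493 in Crebbp-KO, an increase in Crebbp-KO (log2 0.99, adjusted p = 0.000186) that differed from Ep300-KO, where it stood at 3937, 3226 and 3253 (log2 1.44, adjusted p = 4.88e-06). Calls of Bach2 (CBP-KO_53 or CBP-KO_1, highest adjusted p 0.101) did not pass without the library in brackets.

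Of 29 BCL6 corepressors and deacetylases 2 rose (4 without WT_46, 1 without WT_4, WT_7, CBP-KO_55 or CBP-KO_1, 0 without CBP-KO_53) and 3 fell (1 without CBP-KO_55). The share called was 17.2%, against 8.36% of all genes. Bcorl1, a relative of the corepressor BCOR, rose from 272 ± 67.3 to 492 ± 41.2 (log2 0.88, adjusted p = 0.00919). Hdac7, a class IIa deacetylase, fell from 20556 ± 535 to 16462 ± 1156, and Mta3, a NuRD subunit that partners BCL6, fell from 7841 ± 267 to 6537 ± 387. Bcor (log2 -0.25, adjusted p = 0.442) and Ncor1 (log2 0.01, adjusted p = 0.972) did not pass. Among these calls, those that ended without the library in brackets were of Bcorl1 (CBP-KO_53, adjusted p = 0.0539) and Mta3 (CBP-KO_55, adjusted p = 0.0723).

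Chromatin modifiers showed a few large single changes. Of 37 histone methylation and polycomb genes 4 rose (2 without CBP-KO_53) and 2 fell (16.2% called, against 8.36% of all genes). Jarid2, a cofactor that guides polycomb complex PRC2, stood at 3181, 2963, 3331, 3036 and 3251 in WT and 2053, 2021 and 1912 in Crebbp-KO, with the groups apart (log2 -0.66 ± 0.07 SE, adjusted p = 0.000191), and Phc1, a PRC1 subunit, fell from 2052 ± 191 to 1412 ± 55.5 (log2 -0.53, adjusted p = 0.00294). Kdm5b, a demethylase of promoter histone marks, stood at 217, 193, 371, 143 and 201 in WT and 574, 752 and 439 in Crebbp-KO and rose (log2 1.42, adjusted p = 0.00439). In Ep300-KO Kdm5b stood at 911, 1079.5 and 897, and the knockouts did not differ by the test (log2 -0.74, adjusted p = 0.121). Scmh1, another PRC1-associated gene, rose from 1359 ± 168 to 2441 ± 74.7 (log2 0.85, adjusted p = 0.000315). Ezh2 (log2 -0.03, adjusted p = 0.828) and Kmt2d (log2 -0.03, adjusted p = 0.942), both recurrently mutated in lymphoma, did not pass.

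Of 13 genes for DNA methylation and its removal 4 rose (2 without CBP-KO_53) and 1 fell (38.5% called, against 8.36% of all genes). Tet1, a methylcytosine oxidase, stood at 66.8, 52.3, 49.7, 57.8 and 66.7 in WT and 177, 246 and 214 in Crebbp-KO and rose (log2 1.84 ± 0.21 SE, adjusted p = 0.000405), with 143, 197 and 111 in Ep300-KO (log2 0.52, adjusted p = 0.183). The de novo methyltransferases Dnmt3a and Dnmt3b rose from 2174 ± 276 to 3072 ± 221 and from 448 ± 23.4 to 661 ± 89.7 (log2 0.51, adjusted p = 0.00859 and log2 0.55, adjusted p = 0.00527). Dnmt3a was higher still in Ep300-KO at 4472, 5335 and 4778, and this difference passed (log2 -0.66, adjusted p = 0.00336). The maintenance enzyme Dnmt1 (log2 0.01, adjusted p = 0.974) and Tet2 (log2 0.37, adjusted p = 0.126) did not pass. Calls that ended without the library in brackets were those of Dnmt3a (CBP-KO_53, adjusted p = 0.0548).

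Of 32 cyclins, CDK inhibitors and RB family genes 6 rose (3 without CBP-KO_53 or CBP-KO_55) and 1 fell, with a median of 0.13 and 21.9% called, against 8.36% of all genes. The gene that fell was Ccnd2, cyclin D2, which stood at 2341, 1626, 2049.8, 2375 and 2153 in WT and 958, 744 and 778 in Crebbp-KO, with every Crebbp-KO library below the lowest WT library (log2 -1.35 ± 0.12 SE, adjusted p = 0.000191). In Ep300-KO it stood at 2068, 1819 and 2119, and the direct difference passed (log2 -1.28, adjusted p = 0.000158). Ccnd3, the D cyclin that drives dark zone divisions, did not pass (log2 -0.04, adjusted p = 0.854). Cdkn1b, the inhibitor p27, stood at 1476, 1751, 2006, 1398 and 1675 in WT and 2732, 2727 and 2529 in Crebbp-KO and rose (log2 0.69 ± 0.10 SE, adjusted p = 0.0014), with 2529.8, 2721 and 2555 in Ep300-KO and a direct difference of log2 0.03, adjusted p = 0.891. Cdkn2a, which encodes p16 and p19ARF, stood at 94.7, 108, 112, 156 and 109 in WT and 280.0, 374 and 218 in Crebbp-KO and rose (log2 1.30, adjusted p = 0.00363), and here the difference from Ep300-KO passed (log2 1.10, adjusted p = 0.0159). The related inhibitors Cdkn2b (log2 0.99) and Cdkn2c (0.23) and the S phase cyclin Ccne2 (0.47) rose too. The library in brackets, when left out, ended the calls of Cdkn2b (CBP-KO_53, CBP-KO_55 or CBP-KO_1, highest adjusted p 0.094), Cdkn2c (CBP-KO_53 or CBP-KO_1, highest adjusted p 0.0747) and Ccne2 (CBP-KO_55, adjusted p = 0.0667). Without the library in brackets, the difference between the knockouts did not pass for Cdkn2a (CBP-KO_53 or p300-KO_18, highest adjusted p 0.0751).

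Genes of the phases themselves moved little, with 7.5% of S phase genes and 5.0% of G2 and mitosis genes called, against 8.36% of all genes. Of 40 S phase genes 0 rose and 3 fell (1 without WT_4, CBP-KO_53 or CBP-KO_55), with a median of 0.00, and Pcna stood at 40000.4 ± 3392 in WT and 40214 ± 2042 in Crebbp-KO. Of 40 genes of G2 and mitosis 2 rose (0 without WT_41, CBP-KO_53 or CBP-KO_55, 1 without WT_4 or WT_7) and 0 fell, 39 had a log2 difference above 0, and the median was 0.13. Plk1, a mitotic kinase, had log2 0.12, adjusted p = 0.462, and Cdk1 log2 0.14, adjusted p = 0.331. Tfdp2, a partner of E2F factors, had the smallest p of all genes. It stood at 1288, 1314, 1262, 1338 and 1486 in WT and 2973, 2769.9 and 2864 in Crebbp-KO (log2 1.10 ± 0.07 SE, adjusted p = 1.2e-05), and at 1889, 2081 and 1999 in Ep300-KO, between the WT and Crebbp-KO libraries (log2 0.53, adjusted p = 0.00116).

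**Figure D3:**
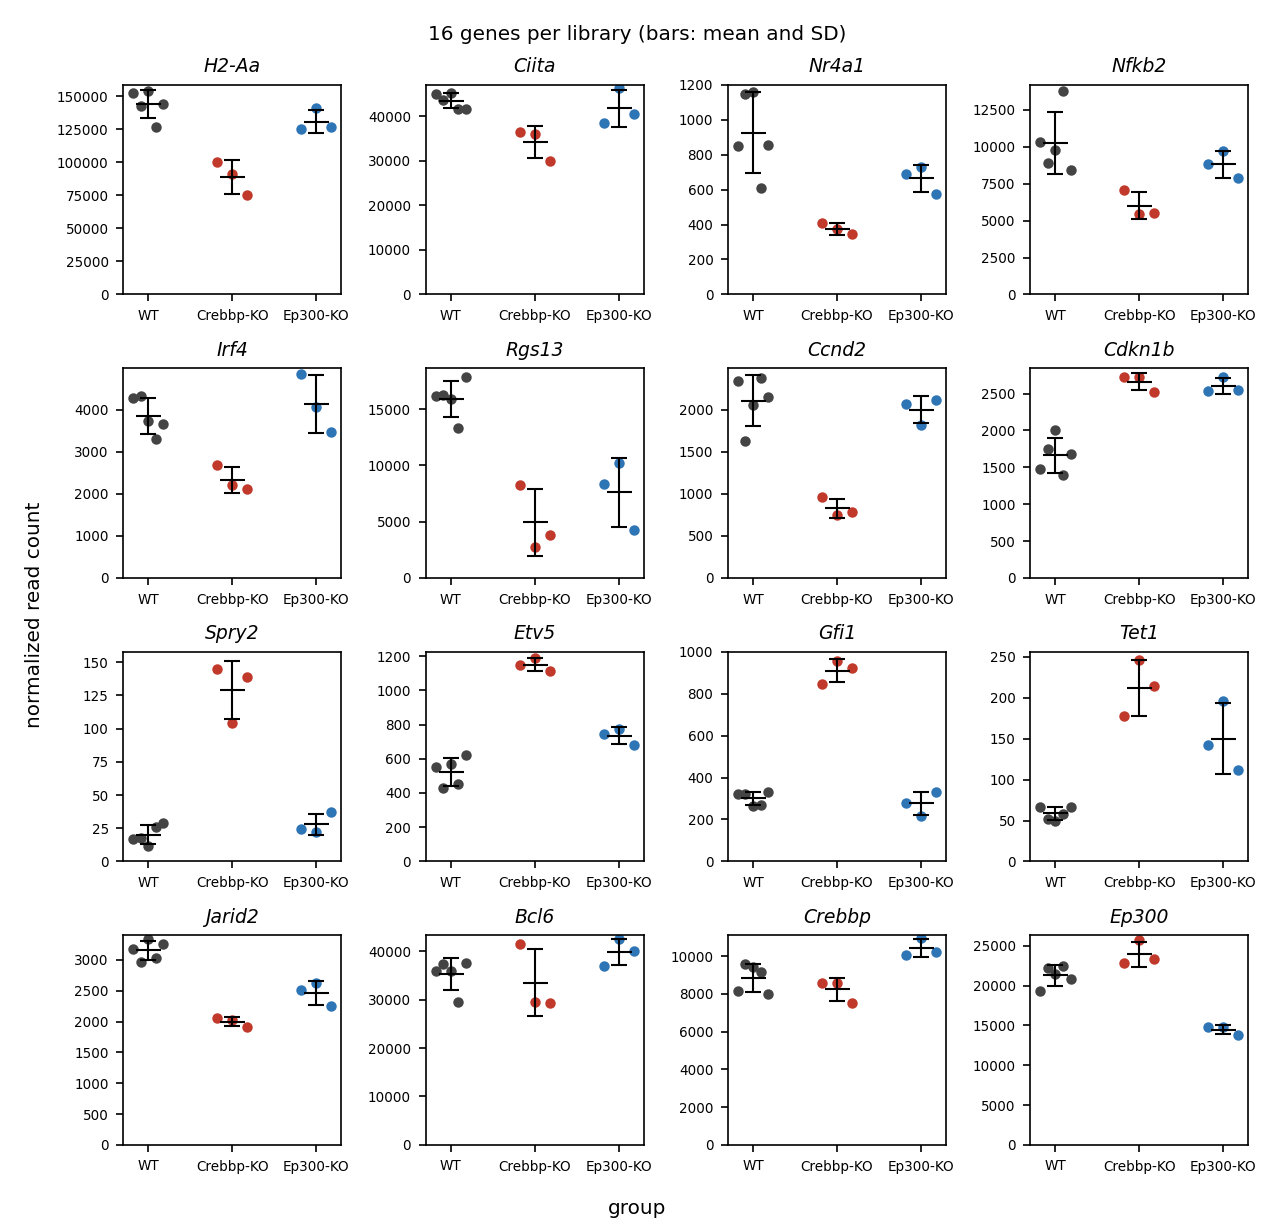
Normalized read counts of 16 genes in each WT (grey), Crebbp-KO (red) and Ep300-KO (blue) library, with the mean and SD as bars, each panel from 0. H2-Aa, Nfkb2, Irf4, Ccnd2 and Jarid2 were lower in each Crebbp-KO library than in each WT library, Spry2, Etv5, Gfi1, Tet1 and Cdkn1b were higher, and Bcl6 and Crebbp overlapped.

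Of 29 genes of receptor tyrosine kinase and RAS-ERK feedback 7 rose and 2 fell (1 without WT_41, WT_7 or CBP-KO_55, 0 without CBP-KO_53), with a median of 0.14. The share called was 31.0%, against 8.36% of all genes. Spry2, a Sprouty inhibitor that ERK signalling induces, stood at 16.7, 17.4, 11.2, 26.3 and 29.3 in WT and 145, 104 and 139 in Crebbp-KO, so its lowest Crebbp-KO library was above its highest WT library (log2 2.68 ± 0.32 SE, adjusted p = 0.000495). Spred1 and Spred2, related inhibitors that bind neurofibromin, stood at 1330.0, 1416, 1559.8, 1262 and 1984 in WT and 3471, 2848 and 2774 in Crebbp-KO and at 1629, 1371, 1313, 1326 and 1659 in WT and 2419.6, 2156 and 2194 in Crebbp-KO (log2 1.02, adjusted p = 0.00129 and log2 0.63, adjusted p = 0.00203). Etv5, an ETS factor and ERK target, stood at 553, 430.4, 571, 450.4 and 621 in WT and 1146, 1189 and 1116 in Crebbp-KO (log2 1.14 ± 0.12 SE, adjusted p = 0.000279). Insr, the insulin receptor, rose from 1463 ± 118 to 2076 ± 134 (log2 0.51, adjusted p = 0.00527). In Ep300-KO, Spry2 stood at 24.7, 22.4 and 37.1 and Spred2 at 1399.9, 1636 and 1382. The direct differences passed for Spry2 (log2 2.18, adjusted p = 0.00301), Spred1 (log2 0.91, adjusted p = 0.00471), Spred2 (log2 0.62, adjusted p = 0.0043) and Etv5 (log2 0.65, adjusted p = 0.00984), and not for Insr (log2 0.06, adjusted p = 0.782).

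Of 27 p53 targets and regulators 6 rose (2 without CBP-KO_53 or CBP-KO_55, 3 without CBP-KO_1) and 2 fell (1 without CBP-KO_53 or CBP-KO_55). The share called was 29.6%, against 8.36% of all genes. Zmat3, an RNA-binding p53 target, rose from 1869.9 ± 192 to 2863 ± 406, and Ccng1, cyclin G1, from 7989 ± 498 to 10616 ± 942. Plk3, a stress kinase, fell from 731 ± 136 to 466 ± 26.9. Trp53 (log2 -0.14, adjusted p = 0.157), Mdm2 (log2 0.01, adjusted p = 0.966) and Cdkn1a, the inhibitor p21 (log2 -0.21, adjusted p = 0.535), did not pass. Among 27 BCL2 family and death receptor genes 2 rose (0 without CBP-KO_53 or CBP-KO_55) and 3 fell (5 without WT_46, 1 without CBP-KO_53 or CBP-KO_55), with 18.5% called. Bid, a BH3 protein, fell from 12522 ± 970.1 to 9885 ± 574, and Apaf1, the apoptosome scaffold, rose (log2 0.23). The death receptors went opposite ways, with Tnfrsf10b higher (log2 0.99) and Fas lower (log2 -0.34). Bcl2l11 (log2 0.45, adjusted p = 0.0713), Mcl1 (log2 0.08, adjusted p = 0.531) and Bcl2 (log2 0.04, adjusted p = 0.914) did not pass. Leaving out the library in brackets ended the calls of Apaf1 (CBP-KO_53, CBP-KO_55 or CBP-KO_1, highest adjusted p 0.0814), Tnfrsf10b (CBP-KO_53 or CBP-KO_55, highest adjusted p 0.114) and Fas (CBP-KO_53 or CBP-KO_55, highest adjusted p 0.0718).

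Genes that place B cells within the follicle were lower in 8 of 30 cases (5 without CBP-KO_53, 1 without CBP-KO_55) and higher in 1, with a median of -0.33. Rgs13, a brake on chemokine receptor signalling that marks germinal center B cells, stood at 16178, 16272, 15889, 13363 and 17869 in WT and 8293, 2718 and 3816 in Crebbp-KO, with CBP-KO_1 the highest of the knockout libraries and still below each WT library (log2 -1.84, adjusted p = 0.00391). In Ep300-KO it stood at 8385, 10236 and 4242, and the knockouts did not differ by the test (log2 -0.69, adjusted p = 0.249). Cxcr5, the follicle homing receptor, fell from 18606 ± 2179.9 to 13446 ± 1271 (log2 -0.46, adjusted p = 0.009). An exon of Cxcr5 overlaps Bcl9l on the opposite strand, which stood at 6137 in WT and 4289 in Crebbp-KO, and the libraries kept no strand. Other regulators of G protein signalling, Rgs10 (log2 -0.51), Rgs14 (-0.36) and Rgs2 (-0.33), fell. S1pr2 (log2 0.14, adjusted p = 0.126) and Gna13 (log2 0.09, adjusted p = 0.249), which confine germinal center B cells, did not pass, nor did Gpr183 (log2 -0.07, adjusted p = 0.875). Calls of Cxcr5 (CBP-KO_55, adjusted p = 0.0575), Rgs10 (CBP-KO_53 or CBP-KO_55, highest adjusted p 0.0766), Rgs14 (CBP-KO_55, adjusted p = 0.0848) and Rgs2 (CBP-KO_53 or CBP-KO_55, highest adjusted p 0.101) did not pass without the library in brackets.

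Of 30 adhesion, integrin and guidance genes 9 fell (3 without CBP-KO_55) and 3 rose (40.0% called, against 8.36% of all genes). Selplg, the P-selectin ligand, stood at 657, 608, 604, 520.0 and 667 in WT and 369, 301 and 259.8 in Crebbp-KO and fell (log2 -0.99, adjusted p = 0.000754). Fermt3, an integrin activator, fell from 26456 ± 1134 to 21821 ± 1589.6. Itga3, an integrin chain for laminin, was low in WT, at 12.4 ± 5.39 in WT and 62.5 ± 13.2 in Crebbp-KO (log2 2.32, adjusted p = 0.00248), with 87.3, 44.7 and 58.9 in Ep300-KO. Among these calls, those that ended without the library in brackets were of Fermt3 (CBP-KO_55, adjusted p = 0.0509).

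The share called in the metabolic, ribosomal and MYC target lists ran from 0% to 12.5%, against 8.36% of all tested genes. Of 61 nuclear genes of oxidative phosphorylation 0 passed, with a median of 0.04. Of 32 glycolysis and hypoxia genes Egln1, an oxygen-sensing hydroxylase, rose from 2516 ± 307 to 3895 ± 370.2 and Pfkp, a phosphofructokinase, fell from 14467 ± 1113 to 10070.3 ± 1269. In all, 2 of this list rose (1 without WT_4, WT_7, CBP-KO_53 or CBP-KO_55, 4 without WT_288 or CBP-KO_1) and 1 fell. Of 33 genes of sterol and fatty acid synthesis 4 rose (2 without CBP-KO_55) and 0 fell, 31 had a log2 difference above 0, and the median was 0.17. They were Scd2, a desaturase, at 17384, 16765, 18098, 14461 and 14752 in WT and 21152, 30054 and 30744 in Crebbp-KO (log2 0.73, adjusted p = 0.00708), Msmo1, a sterol demethylase (log2 0.49), Fads2 (0.54) and Elovl6 (0.50). Fasn, the fatty acid synthase, did not pass (log2 0.20, adjusted p = 0.169). Of 67 cytosolic ribosomal protein genes 1 fell and 0 rose, though 66 had a log2 difference below 0 (median -0.11). In 20 of the 67 every Crebbp-KO library was below every WT library, against 8.47% of all tested genes. Of 40 MYC target and ribosome biogenesis genes 5 fell (3 without WT_4, WT_7, WT_288, CBP-KO_53 or CBP-KO_1) and 0 rose, among them Odc1, of polyamine synthesis, from 22143 ± 1873 to 15383 ± 822, and Ppan, from 7713 ± 244 to 5750.4 ± 427. Calls that ended without the library in brackets were those of Fads2 (CBP-KO_55, adjusted p = 0.0558) and Elovl6 (CBP-KO_53 or CBP-KO_55, highest adjusted p 0.096).

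Of 31 Notch pathway and naive or memory B cell genes 7 fell (4 without CBP-KO_55) and 3 rose (1 without WT_41, WT_7 or CBP-KO_1, 0 without WT_4, WT_288, CBP-KO_53 or CBP-KO_55). The share called was 32.3%, against 8.36% of all genes. Dtx1, an inhibitor and target of Notch, stood at 17684, 15227, 16778, 16899 and 15866 in WT and 11816, 9377 and 9254 in Crebbp-KO and fell (log2 -0.71 ± 0.08 SE, adjusted p = 0.000405), with 11466, 10496 and 11471 in Ep300-KO (log2 -0.14, adjusted p = 0.352). Its relative Dtx4 fell from 277 ± 76.5 to 113 ± 18.4, and the immunoglobulin family ligand Cd200 from 1052 ± 94.3 to 722 ± 109. Notch2 did not pass (log2 -0.19, adjusted p = 0.356). Of 33 sialylation and glycosylation genes 2 rose (1 without CBP-KO_53 or CBP-KO_55) and 4 fell (2 without WT_7, 1 without CBP-KO_53 or CBP-KO_55), with 18.2% called. St8sia1, the GD3 ganglioside synthase, fell from 123 ± 31.3 to 22 ± 15.5 (log2 -2.64, adjusted p = 0.00164), and St3gal6, a sialyltransferase of selectin ligands, rose from 1381 ± 115 to 2030.3 ± 284 (log2 0.55, adjusted p = 0.00539). Gcnt1, a branching enzyme of O-glycans, did not pass (log2 -0.02, adjusted p = 0.919).

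Of 23 plasma cell and secretory genes 1 rose and 3 fell (17.4% called, against 8.36% of all genes). Derl3, of endoplasmic reticulum quality control, fell from 2215 ± 159 to 1378 ± 196 (log2 -0.69, adjusted p = 0.00589). Prdm1, which encodes BLIMP1, stood at 436, 503, 401, 868 and 495 in WT and 475, 150.5 and 262 in Crebbp-KO, with overlap (log2 -0.96, adjusted p = 0.149), and Xbp1 did not pass (log2 0.03, adjusted p = 0.842). In the direct comparison Prdm1 was lower than in Ep300-KO (log2 -2.02, adjusted p = 0.0114). Among 12 constant region genes of immunoglobulins, 2 rose (1 without CBP-KO_53 or CBP-KO_1) and 2 fell (1 without WT_41, WT_46, WT_4, WT_7, WT_288 or CBP-KO_55, 0 without CBP-KO_53), with 33.3% called. Iglc1 rose from 10844 ± 742 to 14266 ± 892 (log2 0.40, adjusted p = 0.00295), and the lambda genes are almost identical, so their reads cannot be fully separated. Ighg1, the IgG1 constant region that also hosts the Cre, stood at 171787, 183864, 185980.0, 80818 and 191518 in WT and 288734, 276782 and 226157 in Crebbp-KO (log2 0.76, adjusted p = 0.0681), with WT_46 the lowest of the 11 libraries. The difference from Ep300-KO did not pass without the library in brackets for Prdm1 (p300-KO_287, adjusted p = 0.0504).

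Of 57 genes recurrently mutated in germinal center lymphomas 14 fell (9 without WT_41 or WT_7, 4 without CBP-KO_53 or CBP-KO_55) and 3 rose (1 without WT_7, CBP-KO_53 or CBP-KO_55), with a median of -0.08. The share called was 29.8%, against 8.36% of all genes. Ciita, Irf4, Irf8, Dtx1 and Cd79a, described above, were among those that fell, and Cdkn2a among those that rose. Tnfaip3, the NF-kB inhibitor A20, fell from 3617 ± 257 to 2593 ± 601, although a WT and a Crebbp-KO library overlapped (log2 -0.50, adjusted p = 0.0296). The library in brackets, when left out, ended the calls of Tnfaip3 (WT_41, WT_4, WT_7, CBP-KO_53 or CBP-KO_55, highest adjusted p 0.156).

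The largest single changes included several genes with no place in these lists. Hmgcll1, a relative of HMG-CoA lyase, stood at 14.9, 11.6, 15.9, 13.1 and 14.6 in WT and 124, 117 and 133 in Crebbp-KO (log2 3.07 ± 0.28 SE, adjusted p = 0.000186). Ppm1e, a nuclear phosphatase of CaM kinases and PAK, stood at 342, 339, 221, 198 and 321 in WT and 901, 1131 and 1133 in Crebbp-KO (log2 1.92 ± 0.19 SE, adjusted p = 0.000191), and Map4k3, a kinase upstream of JNK and mTORC1, at 65.9, 82.9, 95.6, 53.8 and 97.8 in WT and 246, 376 and 275 in Crebbp-KO (log2 1.92, adjusted p = 0.000405). Slc25a24, a mitochondrial ATP-Mg/phosphate carrier, stood at 18.6, 29.1, 8.43, 18.4 and 22.2 in WT and 69.99, 269.5 and 207 in Crebbp-KO (log2 3.06, adjusted p = 0.00129), and Klhl23 at 13, 46.5, 18.7, 10.5 and 67.9 in WT and 302, 152 and 167 in Crebbp-KO (log2 2.97, adjusted p = 0.00602). The Ep300-KO values were 804, 777 and 1021 for Ppm1e, 167, 159.8 and 261 for Slc25a24 and 367, 506 and 186 for Klhl23. The knockouts did not differ by the test in Ppm1e (log2 0.29, adjusted p = 0.442), Slc25a24 (log2 -0.28, adjusted p = 0.779) or Klhl23 (log2 -0.72, adjusted p = 0.518), and Hmgcll1 was higher in Crebbp-KO than in Ep300-KO (log2 1.17, adjusted p = 0.0332). Rab32, a small GTPase of lysosome-related organelles, rose from 228 ± 31.9 to 591 ± 22, and its direct difference passed (log2 1.10, adjusted p = 0.00114). Nav3, a neuron navigator protein, stood at 14.9, 8.72, 37.5, 18.4 and 5.85 in WT and 92.9, 74.8 and 41.5 in Crebbp-KO (log2 2.15), and in Ep300-KO at 2.91, 1.60 and 2.56, below each WT library (log2 4.34, adjusted p = 0.000757). Fgf13 (log2 2.77), Bend4 (1.97) and Pls3, a plastin (1.89), rose as well. Leaving out the library in brackets ended the calls of Nav3 (CBP-KO_53 or CBP-KO_1, highest adjusted p 0.104), Fgf13 (CBP-KO_53 or CBP-KO_55, highest adjusted p 0.0852) and Bend4 (CBP-KO_55, adjusted p = 0.0604). Without the library in brackets, the difference between the knockouts did not pass for Hmgcll1 (CBP-KO_1, CBP-KO_53, CBP-KO_55, p300-KO_18 or p300-KO_287, highest adjusted p 0.112).

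Among genes with smaller changes but small p were further regulators. Pi4k2b, a phosphatidylinositol kinase, rose from 466 ± 12.2 to 859.9 ± 38.9, Rtkn2 from 151 ± 10.8 to 383 ± 28.1, Mfsd6, a transporter-like protein, from 1119 ± 143 to 2071 ± 149, and Ptpn9, a tyrosine phosphatase, from 1405 ± 161 to 2535 ± 116. Mprip, which binds myosin phosphatase, was the most abundant of these, and rose from 41478 ± 879 to 57126 ± 1641 (log2 0.46 ± 0.05 SE, adjusted p = 0.000191). Each had adjusted p of at most 0.000424. Ptpn9 did not differ between the knockouts by the test (log2 0.07, adjusted p = 0.73).

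On the lower side Tspyl5, a NAP family protein, stood at 193, 131, 146, 173 and 259 in WT and 19.3, 9.84 and 2.18 in Crebbp-KO (log2 -4.31, adjusted p = 0.000639), and Olfr98, an olfactory receptor, at 81.7, 82.9, 116, 181 and 117 in WT and 21.7, 9.84 and 12 in Crebbp-KO (log2 -2.92, adjusted p = 0.000379). Dnm3, a dynamin, fell from 230.5 ± 134 to 23.3 ± 7.83, and Srgap3, a RAC GTPase activator, from 94.5 ± 43.1 to 15.5 ± 5.02. Myo1f, an unconventional myosin of leukocytes, stood at 843, 762, 718, 1077 and 635 in WT and 127, 213 and 251 in Crebbp-KO and fell (log2 -2.06 ± 0.21 SE, adjusted p = 0.000191), and in Ep300-KO it stood at 1068, 935 and 1048 (log2 -2.42, adjusted p = 7.08e-05). Hs3st1, a heparan sulfate sulfotransferase, stood at 469.6, 247, 429, 353 and 370.0 in WT and 106, 80.7 and 98.3 in Crebbp-KO (log2 -1.94 ± 0.19 SE, adjusted p = 0.000191), and Tmem51, a membrane protein, fell from 689.7 ± 116 to 209 ± 54.9. Psen2, a gamma-secretase subunit, had the smallest p on this side and stood at 4769.8, 4459, 5055, 5084 and 4181 in WT and 2579, 2542 and 2517 in Crebbp-KO (log2 -0.88 ± 0.07 SE, adjusted p = 7.66e-05). Iqce, a ciliary protein, fell from 3801 ± 201 to 2349.6 ± 177, and Padi2, a peptidylarginine deiminase, from 2330.2 ± 205 to 1266 ± 99.2. Nup210, a nuclear pore protein, fell from 37858 ± 1299 to 27432 ± 991, Bin2, a BAR domain protein of phagocytes, from 8714 ± 293 to 6149.6 ± 359.7, and Spata13, a RAC and CDC42 exchange factor, from 1341 ± 115 to 677 ± 25.6. Ryr1, a calcium release channel, had log2 -1.14 and Aldh3b1, an aldehyde dehydrogenase, log2 -0.88. Direct differences from Ep300-KO passed for Tspyl5 (log2 -3.00, adjusted p = 0.00947), Olfr98 (log2 -2.50, adjusted p = 0.00116), Psen2 (log2 -0.56, adjusted p = 0.000739) and Iqce (log2 -0.83, adjusted p = 6.57e-05), and missed for Nup210 (log2 -0.13, adjusted p = 0.121) and Dnm3 (log2 -1.51, adjusted p = 0.0681).

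Ephb2, an ephrin receptor, stood at 173, 87.2, 133, 1329 and 139 in WT and 29, 25.6 and 56.8 in Crebbp-KO, and Ifi211, an interferon-inducible gene, at 39, 16, 41.2, 376 and 25.8 in WT and 4.83, 0 and 10.9 in Crebbp-KO, so that WT_46 held most of the WT signal of both (log2 -2.53, adjusted p = 0.0364 and log2 -3.58, adjusted p = 0.0325). Sytl3, a synaptotagmin-like protein, stood at 71.5, 52.3, 109, 36.8 and 46.8 in WT and 3.62, 7.87 and 2.18 in Crebbp-KO (log2 -3.56, adjusted p = 0.000668), and an exon of it overlaps Ezr on the opposite strand, which stood at 36067 in WT and 32926 in Crebbp-KO. Without strand in the libraries, reads of such pairs cannot be told apart. The same limit holds for other genes of the report, such as Nfkb2, an exon of which overlaps Psd (1275 in WT and 774 in Crebbp-KO). Calls of Ephb2 (WT_41, WT_4, CBP-KO_53, CBP-KO_55 or CBP-KO_1, highest adjusted p 0.144) and Ifi211 (WT_41, WT_4, CBP-KO_53 or CBP-KO_1, highest adjusted p 0.164) did not pass without the library in brackets.

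**Figure D4:**
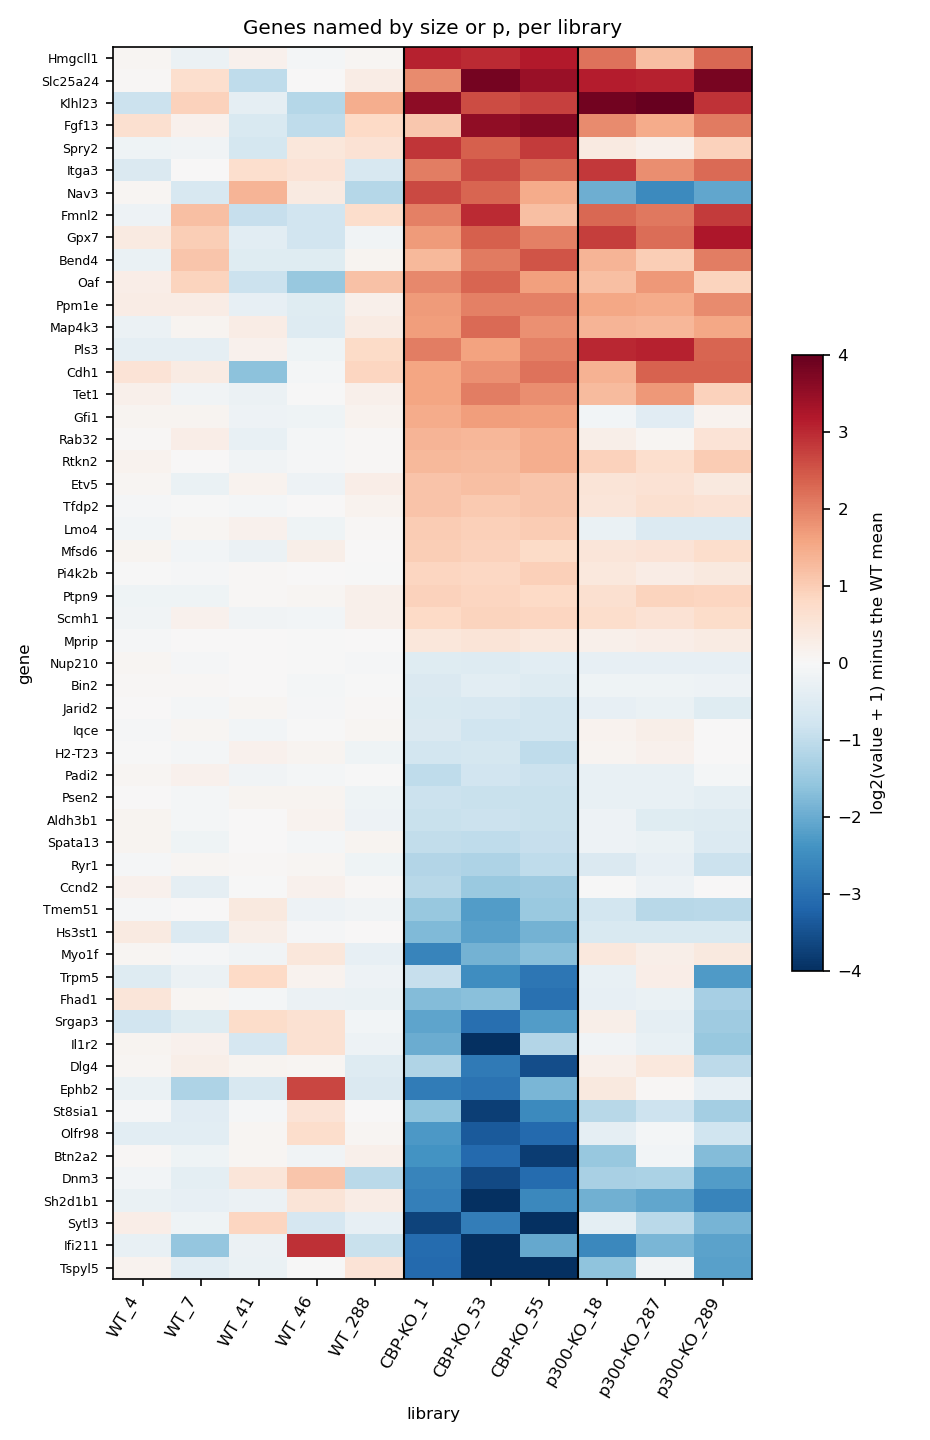
Log2(value + 1) minus the WT mean (colour, limits -4 and 4) for the genes named by size of change or smallest p, 1 row per gene and 1 column per library, with lines between WT, Crebbp-KO and Ep300-KO. Gfi1, Lmo4, Spry2, Ccnd2 and Myo1f are coloured in the Crebbp-KO columns and pale in the Ep300-KO columns, Slc25a24, Klhl23 and Ppm1e are coloured in both, and Ephb2 and Ifi211 are dark in WT_46.

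Markers of other cell types were read beside these results. Of 28 macrophage and monocyte markers 17 were tested, 9 fell (5 without CBP-KO_53, CBP-KO_55 or CBP-KO_1) and 0 rose, with a median of -1.58, and without WT_46 7 fell, with a median of -1.16. In the main fit 52.9% of the tested markers were called, against 8.36% of all genes. Their summed level was 55361 to 67750 in WT and 46233 to 51342 in Crebbp-KO, much of it from Cybb, which B cells also express. Defining markers were low. Adgre1 stood at 55.7, 26.2, 66.5, 89.3 and 49.2 in WT and 19.3, 17.7 and 13.1 in Crebbp-KO, C1qb at 22.3, 8.72, 26.2, 108 and 23.4 in WT and 0, 3.93 and 2.18 in Crebbp-KO and Lyz2 at 94.7, 58.2, 227, 1014 and 16.4 in WT and 2.41, 23.6 and 30.6 in Crebbp-KO. Mpeg1, a pore-forming protein of phagocytes also found in B cells, fell from 3561 ± 1688 to 1372 ± 311. Of 23 T cell markers 13 were tested and 3 fell (23.1% called), with a summed level of 16078 to 19138 in WT and 10382 to 11280 in Crebbp-KO. Lck, a SRC kinase, fell from 9718 ± 897 to 5100.0 ± 667 (log2 -0.93, adjusted p = 0.000405), and Cd3d, Cd3e, Cd3g and Cd8a stood at 10.3 or less in each WT and Crebbp-KO library, while Cd4 stood at 13, 17.4, 16.9, 60.4 and 17.6 in WT and 7.24, 13.8 and 13.1 in Crebbp-KO and did not pass (adjusted p = 0.351). The neutrophil markers S100a8 and Ly6g were at 0 in all libraries. Of 4 dendritic cell markers Flt3 fell from 4651 ± 584 to 3067 ± 273, and Itgax stood at 100.2, 24.7, 26.2, 205 and 31.6 in WT and 12.1, 13.8 and 12 in Crebbp-KO (log2 -2.0, adjusted p = 0.0586). Of 14 stromal and endothelial markers 4 were tested and 2 fell, with a summed level of 9160 to 10025 in WT and 8642 to 9200 in Crebbp-KO. Pecam1 stood at 3889, 4059, 4128, 3234 and 3859 in WT and 2812, 2945 and 2824 in Crebbp-KO and Cdh5, a cadherin of endothelium, at 106, 108, 124, 85.4 and 104 in WT and 54.3, 61 and 55.7 in Crebbp-KO, both without overlap (log2 -0.42, adjusted p = 0.00536 and log2 -0.87, adjusted p = 0.00895), whereas Kdr and Col1a1 stood at 10.5 or less in each of these libraries. Cxcl13, another stromal marker, was not tested. It stood at 49.9 in WT_46, 3.75 in WT_41 and 0 in the other WT and Crebbp-KO libraries. Class II and light zone genes are expressed by macrophages and dendritic cells as well, and the part of such cells in the results was not tested. Without WT_46 the class II list had 8 of 9 genes lower and a median of -0.63. Among these calls, those that ended without the library in brackets were of Adgre1 (CBP-KO_53 or CBP-KO_55, highest adjusted p 0.0787), C1qb (CBP-KO_55 or CBP-KO_1, highest adjusted p 0.0926) and Mpeg1 (CBP-KO_53, adjusted p = 0.0538).

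**Figure D5:**
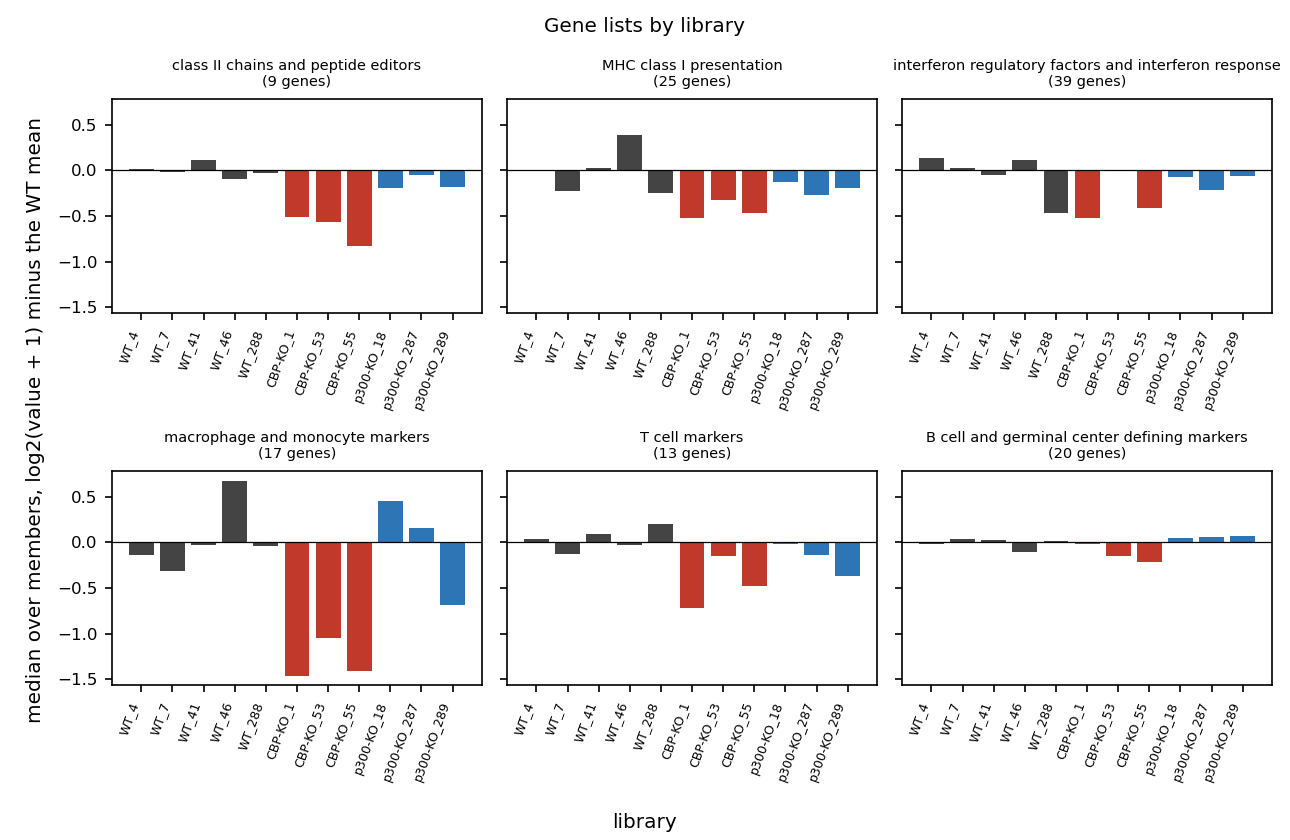
Median over the tested members of log2(value + 1) minus the WT mean, for 6 gene lists in each WT (grey), Crebbp-KO (red) and Ep300-KO (blue) library. The class II median lay between -0.83 and -0.51 in the Crebbp-KO libraries and between -0.09 and 0.11 in WT, while the class I and macrophage medians of WT_46 (0.39 and 0.68) stood above those of the other WT libraries. The macrophage median lay between -1.46 and -1.05 in the Crebbp-KO libraries and between -0.31 and -0.03 in the WT libraries other than WT_46.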

How the data were processed

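RNA sequencing of sorted germinal center B cells was read from 1 deposited table with 1 column for each of 11 libraries (5 WT, 3 Crebbp-KO, 3 Ep300-KO), with groups from the labels. TruSeq RNA v2 libraries were made from total RNA, per the labels' protocols, with a kit that does not mark strand. The build mm10 and the tools HISAT2, featureCounts, DESeq2 and CASAVA 1.8 come from the submitters' processing notes, with settings not given in the sources used here. In the deposited table each signal value is a gene's read count after division by the library's size factor, as the authors normalized it. Whole reads were recovered for 100% of values within a tolerance of 1e-06, and depth is their sum per library.

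The table holds 48593 genes, of which 22043 were at 0 throughout. The 16515 genes averaging at least 10 were tested with limma 3.58.1 (trended variance) on log2(value + 1), a pseudocount of 1, in 1 fit of the 11 libraries that had 3 group means as its only terms. The threshold was a two-sided p, adjusted by Benjamini-Hochberg, below 0.05, and Crebbp and Ep300 also had exact permutation tests. A gene was called where it passed. Alternatives changed the pseudocount, filter, normalization, variance model, weights, covariate, libraries and size threshold, or used the recovered reads with edgeR 4.0.16 or DESeq2 1.42.0. The fit with the covariate (Y-linked signal, high or not) left out p300-KO_18, which held signals of both sexes. Leaving out libraries in the direct comparison of the knockouts was chosen after seeing the data. On simulated data for Crebbp-KO against WT (16515 genes), the procedure recovered 51.4%, 71.6% and 91.5% of genes changed by 1.5-fold, 2-fold and 4-fold, with 3.45% false calls and 0 calls where nothing was changed. Each setting was a single run that drew genes independently of each other around a common mean. It held no shift of a whole library such as that of WT_46, so these rates need not hold for the real libraries.

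The comparison and its 47 gene lists were chosen with earlier results of these data known, and lists share members. Named genes were Crebbp and Ep300, up to 15 per direction by size and up to 15 by p (called, no overlap between the groups' libraries, higher mean of 50 or more), and for each list its key members and up to 6 others by p. The rule leaves out predicted genes, pseudogenes, sex-linked transcripts and variable segments, and some genes that the rule names are not reported. H2-Eb2 and Ezr fall outside this rule and were chosen after their values were seen. Positions came from GENCODE M21 (GRCm38, the build of mm10) for 99.2% of tested genes. R 4.3.3, Python 3.11.15, pandas 2.3.3 and matplotlib 3.10.9 were used.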

Additional observations from a re-analysis of the deposited data

Results flagged for a closer look

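In 21 of the 216 genes named in the text, 1 WT library stood far from the other 4, by the gap to its nearest neighbour as a share of the group's range. Chance flags about 1 in 20 groups, and 3 libraries of a group are too few for this rule. WT_46 was the library in 16 genes and WT_4 in 4. In WT_46, the antigen presentation and interferon genes Nlrc5 (19508), H2-M3 (4785) and Ifi211 (376), the guidance receptor gene Ephb2 (1329), the kinase gene Jak3 (11528), the macrophage markers Lyz2 (1014) and C1qb (108), the T cell marker Cd4 (60.4), the plasma cell regulator Prdm1 (868), the inhibitor gene Cdkn2a (156) and the confinement receptor gene S1pr2 (41178) were high. Bcl6 (29529), Btk (14806), Cd83 (12951), Nfkb1 (12760.5) and Ighg1 (80817.5) were low there. WT_4 was high in Gem (1368), Tnip1 (5833) and Trp53 (14367) and low in Bach2 (47483). In WT_7, Bend4 was high (79.97).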

How the results depend on the processing

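The count of changed genes (1380) was most sensitive to the library weights and to 2 of the knockout libraries. With library weights 2730 changed, 1264 higher and 1466 lower. DESeq2 called 900 higher and 1141 lower. With a change of at least 2-fold required, 329 remained past the threshold, 140 higher and 189 lower. The other whole-table settings gave between 997 (no variance trend) and 1395 (quantile normalization, 646 higher and 749 lower). With 1 library left out, the count ran from 642 to 1541, genes higher from 222 to 659 and genes lower from 372 to 882. The count differing between the knockouts (1556) ran from 745 to 1954, with 849 without p300-KO_18 and 906 without p300-KO_287. The log2 difference of Crebbp ran from -0.14 to -0.04 and did not pass in any of these fits. Of 154 called genes named in the text 113 kept their call under each alternative that tested them, 41 lost it under at least 1, and 0 reversed. The 2-fold requirement was not among the alternatives counted here, and many of these genes changed by less. Beside the libraries named in the report, omitting the variance trend ended the calls of Atf3, Bach2, C1qb, Ccr6, Cd79a, Ephb2, Fcgr2b, H2-DMb1, Ifi211, Nfkbia, Tapbp and Tnfaip3, fitting only the WT and Crebbp-KO libraries those of Ephb2 and Ifi211, no filter those of Atf3 and Cdkn2b, library weights that of Ccr6, quantile normalization that of Atf3, and a pseudocount of 5, a covariate for Y-linked signal or edgeR that of Ifi211. No paired analysis was possible because no replicate number occurs in both groups. At a depth of at least 53550726 reads a library, 3.58% of genes with a mean of 10 to 50 were called, against 11.5% between 200 and 1000, so small changes of weakly expressed genes may not have been detectable.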
